A study of Mus musculus with 4 samples.

Results

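Neighbouring m6A sites, meaning listed sites of 1 named gene that lay at most 100 nucleotides (nt) apart on the same strand in the same library, are described here. Members were chosen by listed position and gene: a row of a library's table was one if another row of that table shared its chromosome, strand and gene and its position differed by at most 100 nt. By this rule 1114 of 11986 rows in named genes were clustered, out of 34741 rows listed in 4 libraries in all. They stood for 1091 distinct bases in 486 of 5526 genes with a site. The comparison class, called isolated below, held the 4540 rows of genes with 2 or more sites in a library that had no such neighbour. A further 6332 rows belonged to genes with 1 site in their library. The rule used the listed positions, so the number and the spacing of clustered sites are given as descriptions, and levels, 3-mers and listing in other libraries carry the tests.

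The cells came from the cortex of mice carrying APOBEC1-YTH, a cytidine deaminase fused to the YTH domain that binds m6A, in all groups. Animals aged 10 weeks at the start received tamoxifen at 20 mg/kg every 24 hours over 5 days, and material was taken 7 days after the last dose. The labels give no untreated and no wild-type samples, and they do not name the promoter that drives the transgene or say whether animals were pooled. Astrocytes were sorted with an antibody to ACSA2 and microglia with an antibody to CD11b, and each type has 2 libraries, named astrocyte 1, astrocyte 2, microglia 1 and microglia 2 below after their labels. In GLORI a chemical treatment turns unmethylated adenosine into a base read as G, so the share of reads that still show A is the methylation level of that base, given here as a percent. Nothing in the labels says that the replicates of a type came from separate mice, and p-values measure the spread between these libraries.

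N6-methyladenosine is set on nascent transcripts by a complex around METTL3 and METTL14, which prefers an adenosine followed by cytidine in a short consensus. Sites are known to gather in long internal exons and near stop codons, where several consensus adenosines can lie close together. Proteins of the YTH family bind the modified base and affect the decay, splicing and translation of the transcript. The comparisons below ask whether neighbouring adenosines carry similar levels and how they compare with isolated sites of multi-site genes.

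The marker genes of the 2 types did not follow the labels in replicate 2. Of 34 astrocyte markers, astrocyte 1 listed a site in 29, astrocyte 2 in 2, microglia 1 in 1 and microglia 2 in 24. Of 35 microglia markers, the same libraries listed a site in 4, 29, 22 and 3. Oligodendrocyte markers had sites in 12 and 10 of 15 genes of astrocyte 1 and microglia 2, and in 0 genes of the remaining libraries. Comparisons between clustered and isolated sites were made within each library and do not use the label. Any difference between labelled types carries this limit. The tables do not give the read depth of any library.

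The tables give 3 letters for each site, the methylated adenosine with the base on either side, and every site was GAC or AAC. Read 5′ to 3′ on the transcript strand, some of the closest neighbours, close pairs listed in more than 1 library and a pair of Slc1a2, described below, are shown to let the spacing be seen. Capitals mark the listed adenosines, and n stands for a base that the tables do not give.
Shq1, 3 nt apart: gAcgAc
Npepl1, 3 nt apart: gAcaAc
Akap7, 4 nt apart: gAcnaAc
Cpeb4, 7 nt apart: aAcnnnngAc
Grn, 9 nt apart: gAcnnnnnnaAc
Marcks, 11 nt apart: aAcnnnnnnnnaAc
Nemf, 12 nt apart: aAcnnnnnnnnnaAc
Slc1a2, 18 nt apart: gAcnnnnnnnnnnnnnnngAc
No pair stood closer than 3 nt, the smallest distance at which 2 such 3-mers do not overlap. At 3 nt astrocyte 1 held 2 pairs, astrocyte 2 and microglia 1 held 1 each, and microglia 2 held 0.

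Clustered sites made up 469 of 4790 named-gene sites in astrocyte 1, or 9.79% (95% Clopper-Pearson interval 8.96 to 10.7). They made up 244 of 2348, or 10.4% (9.19 to 11.7), in astrocyte 2. In microglia 1 they were 51 of 1066, or 4.78% (3.58 to 6.24), and in microglia 2 350 of 3782, or 9.25% (8.35 to 10.2). These intervals cover the counting of sites only. They treat sites as independent, although clustered sites come in groups of 2 or more by the rule, so they are too narrow. Microglia 1, the library with the fewest sites in named genes, stood lowest. The mean of the libraries labelled astrocyte was 10.1% and that of the libraries labelled microglia 7.02%, a difference of 3.07 points, given as a description. Without microglia 1 the difference was 0.84 points. Among sites of genes with 2 or more sites, the share was 18.5%, 23.9%, 24.2% and 18.6% in the order given, and the labelled types differed by -0.18 points.

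The 1114 rows formed 540 clusters, of which 510 had 2 sites, 26 had 3 and 4 had 4. No cluster held more than 4 sites, and the longest, in P2ry12 in microglia 1, spanned 221 nt. The gap between neighbours inside clusters had a median of 39.5 nt in astrocyte 1, 30.0 nt in astrocyte 2, 39.0 nt in microglia 1 and 40.0 nt in microglia 2. Of the 574 neighbouring pairs, 163 were at most 20 nt apart and 362 at most 50 nt. Gaps of a multiple of 3 made up 210 of the 574 pairs. The share was 38.3% in astrocyte 1, 35.7% in astrocyte 2 and 32.0% in microglia 2. In microglia 1 it was 55.6%, from 15 of only 27 pairs. The same share among pairs farther apart is not given here, so no periodicity is read from it. Adjacent sites of a gene that were over 100 nt apart had a median gap between 985 and 1873 nt. Distances are on the genome, so 2 sites joined by splicing count as far apart.

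**Figure D1:**
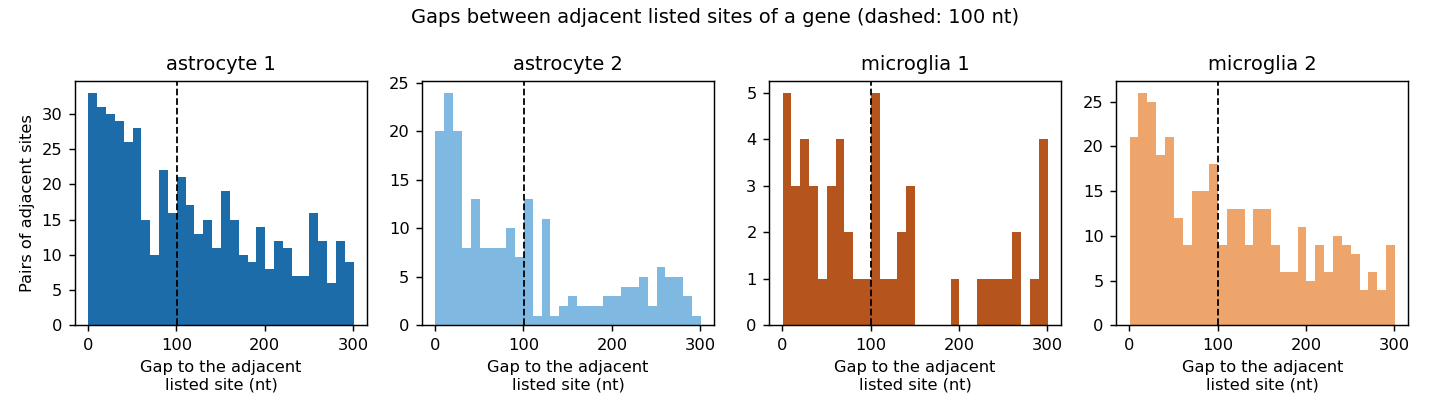
Number of pairs of adjacent listed sites of a gene (vertical axis) by their gap in nucleotides (horizontal axis, bins of 10 nt up to 300), 1 panel for each library with its own vertical scale. The dashed line marks the limit of 100 nt, and the gaps inside it have medians of 30.0 to 40.0 nt.

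Gaps of 91 to 100 nt occurred 16, 7, 1 and 18 times in astrocyte 1, astrocyte 2, microglia 1 and microglia 2, and gaps over 100 and up to 110 nt occurred 21, 13, 5 and 9 times. Levels of the neighbours just inside differed by a median of 21.7, 19.2, 10.0 and 14.9 points. Just outside, the medians were 20.0, 24.5, 40.4 and 17.0 points.

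In 3 of 4 libraries the share of genes with a cluster was higher at each step in the number of listed sites. More sites give a gene more pairs that could meet the rule, so this rise is given as a description. In astrocyte 1, 87 of 553 genes with 2 sites had one (15.7%), against 52 of 192 with 3 (27.1%), 28 of 60 with 4 (46.7%) and 50 of 93 with 5 or more (53.8%). In microglia 2 these shares were 17.9%, 26.5%, 39.3% and 43.5%, and in astrocyte 2 they were 22.3%, 38.2%, 46.4% and 50%. In microglia 1, with 4 to 10 genes in each group above 2 sites, they were 23.1%, 50%, 25.0% and 50%. Counted over sites instead of genes, the clustered share in astrocyte 1 was 15.7%, 18.1%, 24.2% and 21.7%. It was 22.3%, 26.2%, 26.8% and 22.7% in astrocyte 2, and 17.9%, 18.6%, 22.3% and 17.7% in microglia 2. Microglia 1 gave 23.1%, 36.7%, 12.5% and 22.9%. In astrocyte 2 and microglia 2 the share of sites in genes with 5 or more sites was thus close to that in genes with 2. Of the 486 genes with clusters, 484 were found by symbol in the RefSeq gene table, 463 of them protein-coding and 10 long non-coding.

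In each library, sites within 100 nt of each other had more similar levels than adjacent sites farther apart. In astrocyte 1 the median absolute difference in level was 14.3 points over 240 neighbouring pairs and 20.0 points over 1398 pairs more than 100 nt apart. In astrocyte 2 it was 10.2 points over 126 pairs against 21.8 over 506. Microglia 1 gave 10.0 points over 27 pairs against 20.0 over 99, and microglia 2 gave 12.2 points over 181 pairs against 17.6 over 992. The difference was -8.19 points ± 3.1 (SD, n = 4 libraries), lower for close neighbours in 4 of 4 libraries. With 4 libraries the two-sided exact sign-flip permutation test gave p = 0.125, the smallest it can give, and 0.25 after Benjamini-Hochberg adjustment over 6 measures. The ranges of the libraries' medians, 10.0 to 14.3 points and 17.6 to 21.8 points, did not overlap.

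**Figure D2:**
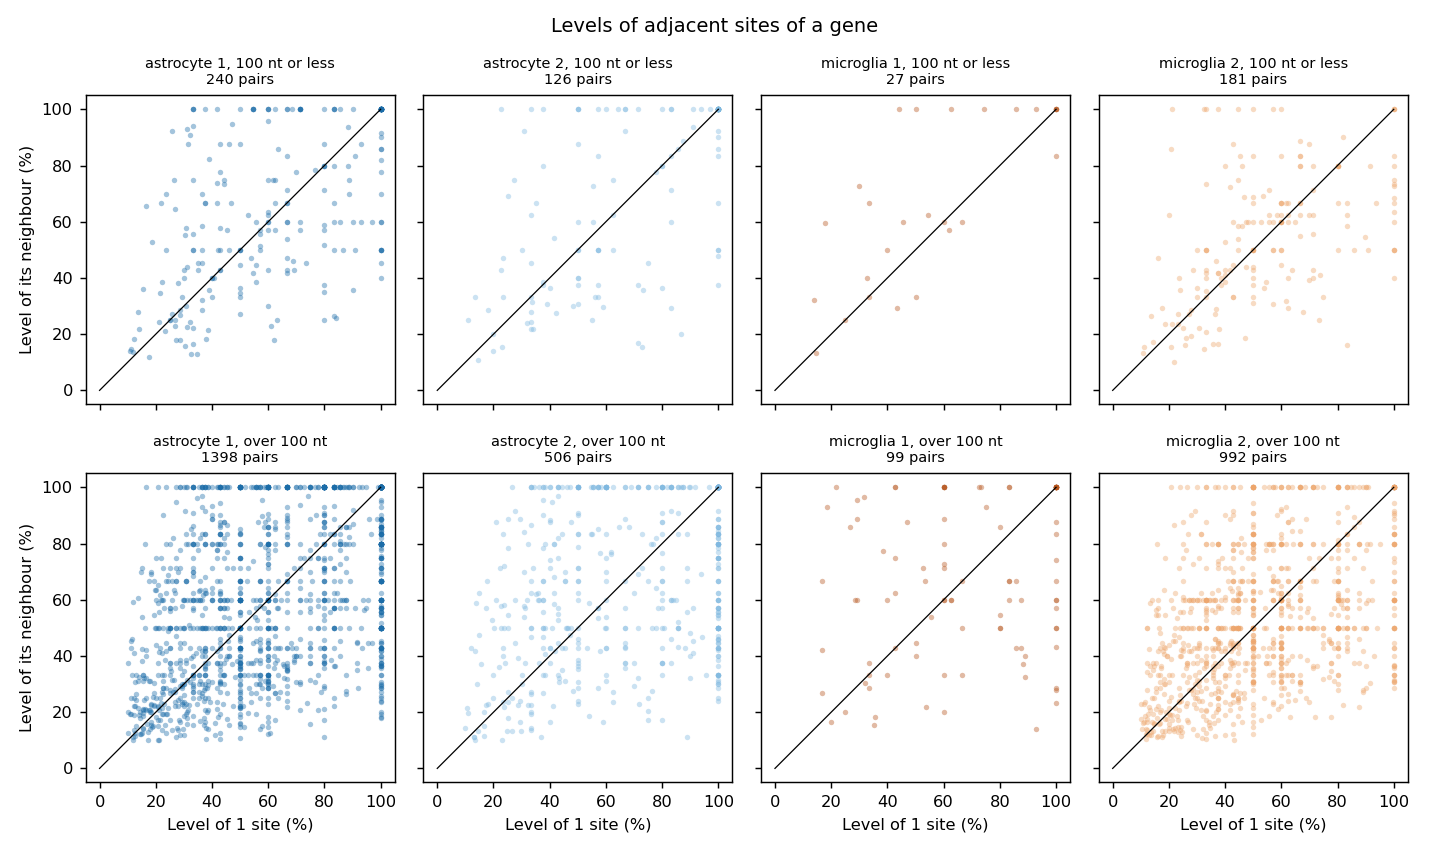
Level of a site (horizontal axis, percent) against the level of the adjacent listed site of its gene (vertical axis, percent), for pairs at most 100 nt apart (top) and farther apart (bottom) in each library. Points on the line have equal levels, and the median distance in level is 10.0 to 14.3 points in the top panels and 17.6 to 21.8 points in the bottom panels.

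The same order held when only genes with both a close and a distant pair were kept. Pairs were pooled over these genes, so no comparison was made inside each gene. In the 130 such genes of astrocyte 1, the median difference was 15.0 points over 153 close pairs and 20.0 over 319 distant pairs. The values were 12.1 and 24.5 in 55 genes of astrocyte 2, 15.4 and 32.0 in 8 genes of microglia 1, and 13.6 and 16.9 in 74 genes of microglia 2. The mean difference was -9.36 points (exact sign-flip permutation p = 0.125). This check was added after the data were seen.

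Part of the close pairs had exactly equal levels. Both neighbours stood at 100% in 28 of 240 close pairs of astrocyte 1 (11.7%), against 5.87% of distant pairs, and in 27 of 126 of astrocyte 2 (21.4%), against 10.9%. In microglia 1 the shares were 14.8% and 14.1%, and in microglia 2 1.66% and 1.61%. Among pairs with both levels below 100%, the levels were equal in 10.7% of close and 4.16% of distant pairs in astrocyte 1. The shares were 15.3% and 2.46% in astrocyte 2, 18.8% and 8.33% in microglia 1, and 11.5% and 4.40% in microglia 2. Levels of exactly 50%, 60% or 100% made up 32.0% of the clustered sites of astrocyte 1, 42.2% of astrocyte 2, 39.2% of microglia 1 and 24.9% of microglia 2. Among isolated sites these shares were 32.7%, 38.6%, 46.9% and 25.5%. With equal pairs left out, the mean difference was -6.34 points (exact sign-flip permutation p = 0.125), and with sites at 100% left out it was -6.94 points (p = 0.125, exact sign-flip permutation). Both were lower for close neighbours in 4 of 4 libraries. The tables give no reads, so whether neighbours of equal level were read on the same molecules was not tested.

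Levels of close neighbours correlated across pairs with Pearson's r of 0.53 for astrocyte 1, 0.61 for astrocyte 2, 0.75 for microglia 1 and 0.45 for microglia 2. For distant pairs r was 0.42, 0.33, 0.22 and 0.41. With both levels below 100%, r was 0.38, 0.40, 0.45 and 0.53 for close pairs. For such distant pairs it was 0.33, 0.21, -0.01 and 0.37. Pairs of a library share its depth and pairs of a gene share its transcript, so these values are descriptions. Differences over 50 points were found in 16, 10, 1 and 8 close pairs of astrocyte 1, astrocyte 2, microglia 1 and microglia 2, or 6.67%, 7.94%, 3.70% and 4.42%. Among distant pairs the shares were 8.94%, 12.5%, 15.2% and 5.14%.

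By gap, the mean absolute difference was 15.4 points for gaps of 1 to 20 nt in astrocyte 1, 21.04 for 21 to 50 nt, 20.3 for 51 to 100 nt and 22.8 for gaps over 100 and up to 200 nt. Astrocyte 2 gave 15.6, 15.0, 22.2 and 23.1 points over the same gaps, and microglia 2 gave 14.9, 15.0, 20.7 and 22.4. In these 3 libraries the closest gaps had lower means than gaps over 100 and up to 200 nt. Microglia 1, with few pairs at each gap, gave 29.4 points over 8 pairs at 1 to 20 nt, 7.37 over 8 pairs at 21 to 50 nt, 12.1 over 11 pairs at 51 to 100 nt and 31.3 over 13 pairs with gaps over 100 and up to 200 nt. Beyond 200 nt the means of all libraries lay between 20.2 and 31.1 points.

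**Figure D3:**
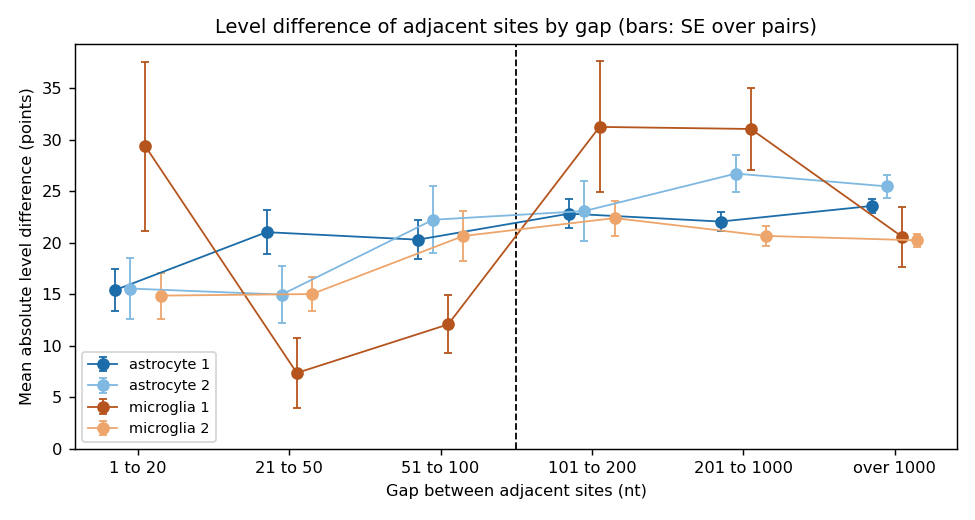
Mean absolute difference in level between adjacent sites of a gene (vertical axis, percentage points) by gap (horizontal axis, nucleotides) in each library, with the standard error over pairs as bars and the dashed line at 100 nt. In 3 libraries the mean is 14.9 to 15.6 points at 1 to 20 nt and 22.4 to 23.1 points at gaps over 100 and up to 200 nt, and in microglia 1 each bin up to 200 nt holds 8 to 13 pairs.

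The difference in level between clustered and isolated sites was smaller than the spread between libraries. The median level of clustered and isolated sites was 60% and 60% in astrocyte 1, 71.4% and 66.7% in astrocyte 2, 60% and 66.7% in microglia 1, and 52.8% and 50% in microglia 2. The mean difference was 0.22 points ± 5.0 (SD, n = 4 libraries, exact sign-flip permutation p = 1), with 2 libraries higher, 1 lower and 1 equal. Under 7 of 11 other settings it was below 0, and at a distance of 50 nt it was 7.07 points. Sites at 100% made up 20.7% and 19.3% in astrocyte 1, 32.8% and 27.6% in astrocyte 2, 29.4% and 30.0% in microglia 1, and 7.71% and 7.75% in microglia 2. That difference was 1.49 points ± 2.6 (SD, n = 4, exact sign-flip permutation p = 0.5). At 50 nt it was 6.46 points and higher in 4 of 4 libraries (exact sign-flip permutation p = 0.125). Sites of genes with 1 site had higher medians than both classes, 80.0%, 87.5%, 100% and 60% in the order given.

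Inside genes that held both classes, clustered sites were higher in 68 and lower in 56 of 130 genes of astrocyte 1. They were higher in 23 and lower in 29 of 55 genes of astrocyte 2, higher in 1 and lower in 7 of 8 genes of microglia 1, and higher in 33 and lower in 39 of 72 genes of microglia 2. The mean difference within genes was -2.06 points ± 5.1 (SD, n = 4 libraries, exact sign-flip permutation p = 0.625).

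**Figure D4:**
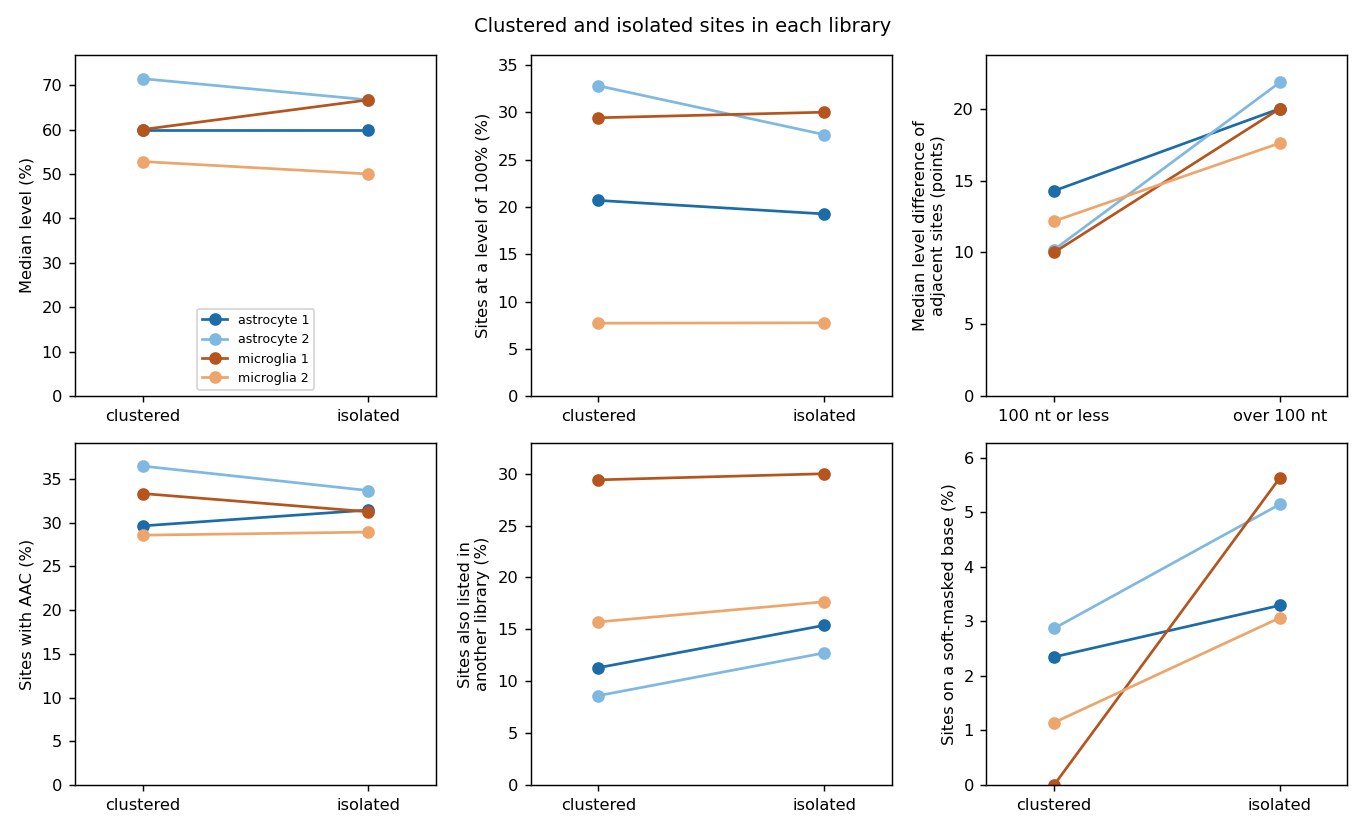
Values of clustered and isolated sites in each library, with 1 line per library and vertical axes from 0: median level, percent at 100%, median level difference of adjacent sites at most 100 nt and over 100 nt apart, percent with AAC, percent also listed in another library, and percent on a soft-masked base. The level difference, the listing in another library and the soft-masked share are lower on the left in 4 of 4 libraries, while the other 3 measures have no common direction.

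The 3-mers of clustered and isolated sites did not differ in one direction. AAC made up 29.6% of clustered and 31.4% of isolated sites in astrocyte 1, 36.5% and 33.7% in astrocyte 2, 33.3% and 31.3% in microglia 1, and 28.6% and 28.9% in microglia 2. The difference was 0.68 points ± 2.1 (SD, n = 4, exact sign-flip permutation p = 0.625). Of the close pairs of astrocyte 1, 118 were GAC with GAC, 102 mixed and 20 AAC with AAC. The counts were 56, 47 and 23 in astrocyte 2, 12, 11 and 4 in microglia 1, and 100, 59 and 22 in microglia 2. In mixed close pairs the GAC site was higher in 46 and the AAC site in 36 of 102 pairs of astrocyte 1. It was higher in 15 against 16 of 47 pairs of astrocyte 2, 3 against 5 of 11 of microglia 1, and 28 against 22 of 59 of microglia 2. The mean GAC minus AAC difference was -0.13 points ± 1.2 (SD, n = 4, exact sign-flip permutation p = 0.875).

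Soft-masked bases, which are written in lower case in the tables and usually lie in repeats, made up a smaller share of clustered than of isolated sites in 4 of 4 libraries. They were 11 of 469 clustered sites in astrocyte 1 (2.35%, Clopper-Pearson interval 1.18 to 4.16) against 3.29% of isolated sites. In astrocyte 2 they were 7 of 244 (2.87%) against 5.14%, and in microglia 2 4 of 350 (1.14%) against 3.06%. In microglia 1 none of the 51 clustered sites was soft-masked (0%, upper bound 6.98%) against 5.63% of isolated sites. The difference was -2.69 points ± 2.0 (SD, n = 4, exact sign-flip permutation p = 0.125), -1.71 points without microglia 1 and -1.30 points over GAC sites alone.

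Clustered sites were listed again in another library less often than isolated ones in 4 of 4 libraries, by a small margin. The share with the same base listed in at least 1 other library was 11.3% and 15.4% in astrocyte 1, 8.61% and 12.7% in astrocyte 2, 29.4% and 30.0% in microglia 1, and 15.7% and 17.7% in microglia 2. The difference was -2.68 points ± 1.7 (SD, n = 4, exact sign-flip permutation p = 0.125), and -0.03 points at a distance of 50 nt, where 3 libraries were lower and 1 higher (exact sign-flip permutation p = 1). Of the 1091 bases, 1068 were clustered in 1 library, 23 in 2 and 0 in 3 or more. Over all named genes, 11986 rows stood for 10598 distinct bases, so most bases were listed in 1 library. Overlap of distant pairs is not given here, so neither this count nor those of close pairs are read as a trait of clusters. Of 240 close pairs in astrocyte 1, 4 had both bases listed in other libraries and 47 had 1. The counts were 3 and 17 of 126 in astrocyte 2, 6 and 3 of 27 in microglia 1, and 5 and 47 of 181 in microglia 2. Astrocyte 1 and microglia 2, where most astrocyte markers had sites, shared 2 whole pairs, while 43 pairs of astrocyte 1 had 1 of their bases in microglia 2. Absence from a table does not tell an unmethylated base from one that was unread or failed the caller's limits.

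In all, 9 pairs were listed with both bases in 2 libraries, and 0 in 3 or more. Their levels are given in order of genome position. In Shq1, an assembly factor of small nucleolar ribonucleoproteins, the bases at positions 100641516 and 100641519 of chromosome 6 (mm39, minus strand) stood at 54.5% and 100% in astrocyte 1 and at 44.2% and 100% in microglia 1. In Top1mt, the mitochondrial topoisomerase, bases 25 nt apart stood at 68.4% and 100% in astrocyte 1 and at 74.2% and 100% in microglia 1. In these pairs the same base was the higher one in both libraries. LOC115488402, an uncharacterised transcript, repeated its order as well, with 14.6% and 10.8% in astrocyte 2 and 14.7% and 13.1% in microglia 1 at 69 nt.

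Other shared pairs reversed their order. In Marcks, an actin-binding substrate of protein kinase C, positions 37012013 and 37012024 of chromosome 10 (minus strand) stood at 34.0% and 22.0% in astrocyte 2 and at 20.0% and 62.5% in microglia 2. In Grn, which encodes the lysosomal growth factor progranulin, positions 102327313 and 102327322 of chromosome 11 (plus strand) stood at 33.3% and 24.3% in astrocyte 2 and at 30.0% and 72.7% in microglia 1. In Grn the base at the lower position differed little between the libraries, and the other base carried most of the difference. Cpeb4, a regulator of cytoplasmic polyadenylation, gave 62.5% and 100% in microglia 1 and 37.9% and 21.9% in microglia 2 for its bases 7 nt apart. The pair of 5031439G07Rik stood at 55.6% and 44.4% in astrocyte 1 and at 44.4% and 53.8% in microglia 2. Nemf, which acts in ribosome quality control, had 92.9% and 100% in microglia 1 and 100% at both in microglia 2. Over the 9 pairs the order was the same in 3, opposite in 5 and undefined in 1. Pairs outside the rule for named genes were named, after their values were seen, to show the pairs behind this count.

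The test of levels between the labelled types could reach few clustered sites. Of 1100 sites listed in all 4 libraries, 746 were tied within each labelled type and left out. The other 354 were tested with limma, and only 48 of them lay in named genes. Of these 354, 0% passed an adjusted p of 0.05, while 4.52% had an unadjusted p under 0.05. Of the members, 4 were listed in all libraries and 3 could be tested, and 0 of these 3 had an unadjusted p under 0.05. With tied sites kept in limma, 1 of 4 members had an unadjusted p under 0.05 and 0 had an adjusted p under 0.05. The Marcks base at 37012013 stood at 29.8% and 34.0% in the libraries labelled astrocyte and at 16.7% and 20.0% in those labelled microglia. Its difference in log2 odds was 1.07 with a standard error of 0.58 (limma, unadjusted p = 0.145, adjusted p = 0.678). The markers of replicate 2 go against these labels. Ino80, a chromatin remodelling ATPase, stood at 92.3%, 100%, 100% and 100% (limma, adjusted p = 0.678). LOC115490046 stood at 29.9%, 49.1%, 59.7% and 31.8% (limma, adjusted p = 0.85). The Lars2 base was at 100% in every library and was left out of the main test as tied.

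Genes with clusters in 2 libraries numbered 32 and the other 454 had them in 1, a count with no share of other genes beside it. Genes that lead the 32 by clustered rows are described next, with levels in order along the transcript from the 5′ end. Slc1a2 encodes the main glutamate transporter in astrocytes. It had 4 of its 14 sites clustered in astrocyte 1 and 2 of 13 in microglia 2, at different bases. In astrocyte 1 its pairs stood at 32.6% and 12.9%, 86 nt apart, and at 21.6% and 34.6%, 18 nt apart. In microglia 2 its pair, 14 nt apart, stood at 50% and 33.3%. It had no site in astrocyte 2 or microglia 1, and all its members stood at 50% or less.

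Vegfa, the vascular endothelial growth factor, had 5 of 6 sites clustered in astrocyte 1. A group of 3 stood at 22.0%, 14.0% and 10.99% over 94 nt, and a pair 12 nt apart at 35.9% and 15.4%. In microglia 2 a Vegfa pair stood at 13.3% and 10.9%, and the former base was the one at 15.4% in astrocyte 1. Cnp, an enzyme of myelin, had 2 of 3 sites clustered in astrocyte 1, at 11.9% and 13.7%, and 4 of 4 in microglia 2, at 11.2%, 15.5%, 28.6% and 42.9%. A Cnp base was common to both, at 13.7% and 15.5%. All Vegfa and Cnp members stood below 50%.

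Plxnb1, a semaphorin receptor, had a run of 4 sites at gaps of 46, 48 and 50 nt in microglia 2, with levels of 54.5%, 38.5%, 40.0% and 38.5%. In astrocyte 1 it had a pair at 25.9% and 27.3%. Pkd1, which encodes polycystin-1, had pairs at 80.0% and 37.5% and at 50% and 34.8% in astrocyte 1, and a group of 3 at 75%, 33.3% and 100% in microglia 2. Levels lay closer together along Plxnb1 than along Pkd1. Marcks had a further pair in microglia 2 at 35.7% and 24.0%, 85 nt apart.

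**Figure D5:**
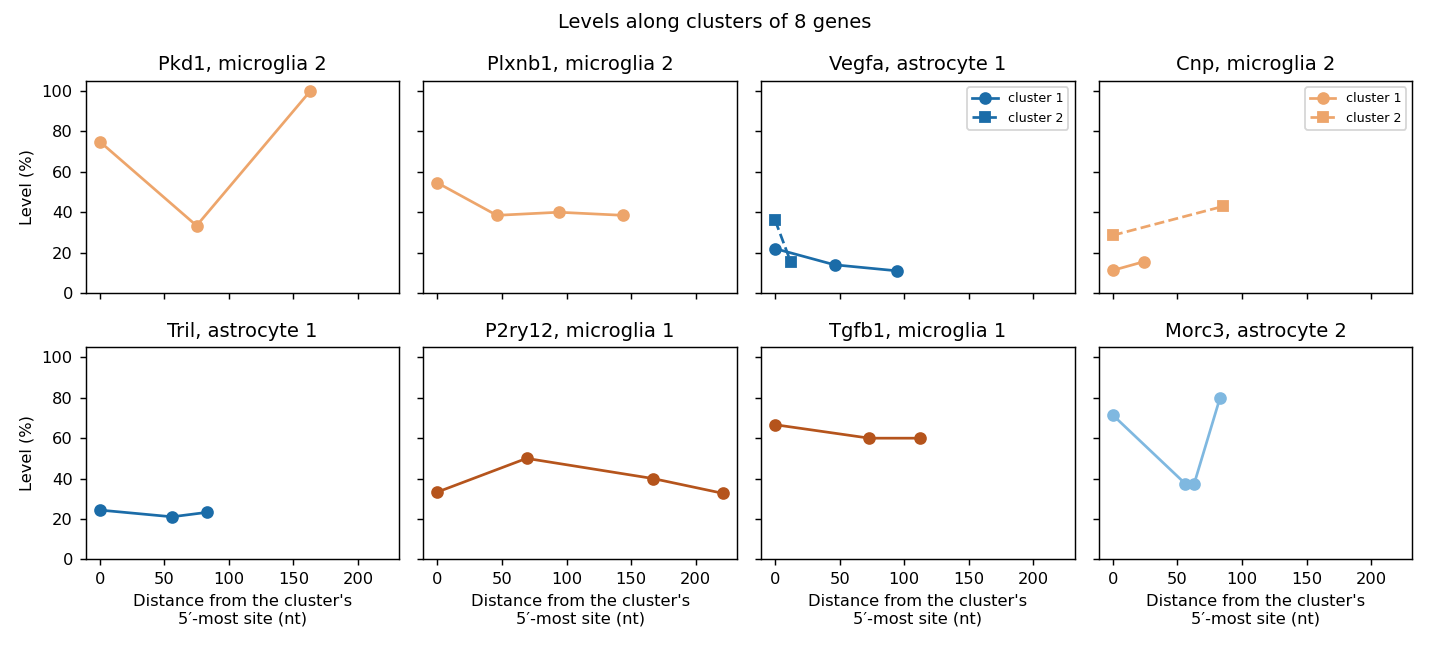
Level (vertical axis, percent) by distance from the 5′-most site of the cluster (horizontal axis, nucleotides) for clusters of 8 genes, each in 1 library, with a line for each cluster. Tril lies between 21.1% and 24.4% and Tgfb1 between 60% and 66.7%, while Morc3 lies between 37.5% and 80.0%.

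The clusters with most sites differed in how even their levels were. In each library 3 were chosen, of which Plxnb1 in microglia 2 and the pair of Shq1 in microglia 1 are described above. Among clusters with equal numbers of sites, those with the shortest span were taken. Such ties included the 11 clusters of 3 sites in astrocyte 1 and the 8 in microglia 2. In astrocyte 1 Tril, a partner of Toll-like receptors, had 3 sites within 83 nt at 24.4%, 21.1% and 23.3%. Farp1, a guanine nucleotide exchange factor, had 3 within 87 nt at 80.0%, 35.0% and 45.5%, and Slc12a2, the sodium, potassium and chloride cotransporter, had 3 within 57 nt at 31.3%, 92.9% and 87.5%. In astrocyte 2 Morc3, a nuclear ATPase, had 4 within 83 nt at 71.4%, 37.5%, 37.5% and 80.0%. Grn had 3 within 35 nt at 33.3%, 33.3% and 24.3%, and Mfap3, a microfibril-associated protein, 3 at 35.0%, 66.7% and 100%. In microglia 1 P2ry12, the purine receptor of resting microglia, had 4 at 33.3%, 50%, 40.0% and 32.7%, and Tgfb1, the transforming growth factor, 3 at 66.7%, 60% and 60%. In microglia 2 Gm6145, a predicted gene, had 4 within 144 nt at 50%, 33.3%, 42.9% and 63.6%, and Mal, a myelin membrane protein, 3 within 76 nt at 22.1%, 30.8% and 57.1%. P2ry12 had 3 sites in astrocyte 2 and Tgfb1 had 2, none of them clustered. In astrocyte 1 Mal had a pair 88 nt apart at 22.7% and 61.1%, both on soft-masked bases.

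The widest differences between close neighbours show how far the levels could part. In astrocyte 1 Coro2b, an actin-binding coronin, had sites 49 nt apart at 100% and 33.3%, and Derl1 and Mertk had pairs with the same difference. In astrocyte 2 Rilpl1, a binding partner of Rab proteins, had sites 42 nt apart at 100% and 22.7%, and in microglia 2 Tcf25 had sites 74 nt apart at 21.1% and 100%. In microglia 1 the widest pair was that of Shq1, at 100% and 44.2%. In each of these 4 pairs the higher site stood at 100%. The closest pairs, with ties taken by the rule for named genes, were Shq1 in astrocyte 1 and microglia 1, Npepl1, an aminopeptidase-like gene, at 80.0% for both bases in astrocyte 2, and Akap7, an anchor of protein kinase A, at 68.8% and 50% in microglia 2. Astrocyte 1 had 1 more pair at 3 nt, and Fat4, Gab1 and Pde8b had pairs at 4 nt in microglia 2 as Akap7 did.

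Most marker genes with clusters lay in the libraries where their list had most sites, with Glul in astrocyte 2 and Mertk in astrocyte 1 as exceptions. Of astrocyte markers with 2 or more sites, astrocyte 1 had clusters in 5 of 20, astrocyte 2 in 1 of 1, microglia 1 in 0 of 0 and microglia 2 in 2 of 15. Over all genes these shares were 24.2%, 29.2%, 28.2% and 22.9%. Aqp4 encodes a water channel found on astrocyte endfeet, and had a pair at 52.8% and 18.8% in astrocyte 1 and another at 16.7% and 35.6% in microglia 2, which share the base at 52.8% and 35.6%. The other astrocyte markers with clusters were Fgfr3, Glul, Gpr37l1 and Mfge8. Of microglia markers, 6 of 15 had clusters in astrocyte 2, 2 of 11 in microglia 1, 1 of 1 in astrocyte 1 and 0 of 0 in microglia 2. Genes named here beyond the rule were chosen after their values were seen. Cx3cr1, the fractalkine receptor, had a pair at 29.2% and 43.2% in microglia 1, and in astrocyte 2 Irf8, a transcription factor of myeloid cells, had 3 sites at 57.1%, 50% and 50%. Mertk, the 1 such gene of astrocyte 1, is a phagocytic receptor that astrocytes also make, with pairs at 33.3% and 100% and at 66.7% and 41.7%. Oligodendrocyte markers had clusters in 3 of 6 genes each of astrocyte 1 and microglia 2, namely Aspa, Cldn11, Cnp and Mal. Neuron markers, endothelial and mural markers and border macrophage markers had clusters in 0 of 0, 0 of 3 and 0 of 1 genes.

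The remaining lists are given over all libraries, where 486 of 1633 genes with 2 or more sites in some library had a cluster (29.8%). Lysosome and phagocytosis genes had clusters in 7 of 11, among them Grn, and the cytokine and innate immune list in 5 of 10, among them Tgfb1. Synapse and ion channel genes had clusters in 6 of 12. Of these, Gabrb1, a GABA receptor subunit, had a pair at 88.2% and 93.8% in astrocyte 1 and another at 60% and 83.3% in microglia 2. Notch, Wnt, Fgf, Bmp and hedgehog signalling had 6 of 19, with 3 sites of Ptch1, the hedgehog receptor, at 50%, 90.9% and 32.0% in astrocyte 1. Chromatin regulators had 4 of 16. Among them Ep300, a histone acetyltransferase, had a pair at 84.2% and 25.9% in astrocyte 1 and another at 60% and 66.7% in microglia 2. Immediate early and stress genes had 2 of 6, ubiquitin ligases and deubiquitinases 3 of 9, and cholesterol and fatty acid genes 1 of 11. In the list of m6A regulators 1 of 5 had clusters. This was Rbm15, a subunit of the writer complex, with 100% and 80.0% in astrocyte 2 and, at other bases, 100% and 44.4% in microglia 2. Malat1 and Neat1 were 2 of 3 nuclear long non-coding RNAs, with a Malat1 pair at 25.0% and 11% in astrocyte 2 and a Neat1 pair at 66.7% and 37.5% in astrocyte 1. Oligodendrocyte precursor markers had 1 of 2, Olig2. These counts are small, and the number of sites in a gene moves with them.

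The order of neighbours along the transcript was also read, a comparison chosen after the data were seen. In close pairs the mean level of the downstream minus the upstream site was -4.42 points in astrocyte 1 and -1.76 in astrocyte 2, against -1.77 points for microglia 1 and -1.28 for microglia 2. The mean downstream minus upstream difference was -2.31 points ± 1.4 (SD, n = 4, exact sign-flip permutation p = 0.125), below 0 in 4 of 4 libraries. In pairs over 100 nt apart it was 1.82 points ± 0.76 (SD, n = 4, exact sign-flip permutation p = 0.125), above 0 in 4 of 4. Both are small beside the median differences within pairs. Counted by pairs, the upstream site was higher in 111 and the downstream site in 83 close pairs of astrocyte 1, and in 88 and 72 of microglia 2. The counts were 45 and 43 in astrocyte 2 and 10 and 10 in microglia 1, so they show little or no direction there.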

How the data were processed

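GLORI was applied to RNA of sorted cortical cells in 4 libraries. The authors deposited 1 table for each library with position, gene, strand, 3-mer and methylation level as a fraction, shown here as a percent. The design text names GLORI-tools for site calling, and the aligner STAR and the build mm39 stand in the submitters' processing notes. No listed level is below 10%, and the tables hold no read counts, so depth and counting error of a level are unknown. Thresholds of the caller were not given in the labels.

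Clustered, isolated and lone sites were assigned in each library with pandas 2.3.3 from positions, gene and strand. The library was the unit of comparison: clustered minus isolated was averaged over 4 libraries and tested with an exact sign-flip permutation test. Levels between labelled types were tested with limma 3.58.1 on log2 odds (levels held within 0.01 and 0.99) of the sites found in every library, with Benjamini-Hochberg adjustment. The code was run on simulated data. For limma these had large shifts and no ties or upper limit of the level, so they do not show what the test could detect here. Without a genome of the build, flanking motifs and gene regions were not analysed here, and soft-masking was read from the case of the 3-mer. Named genes were the 8 with clusters in the largest number of libraries (2 of 4, ties by clustered rows), the 3 largest clusters of each library, the closest and the widest pair of each library, and listed genes with clusters in 2 or more libraries, and some genes that the rule names are not reported here. The members, the 17 gene lists and the rules were chosen with earlier results of these data known. Alternatives were distances of 50 and 200 nt, levels below 100%, GAC only, 1 value per gene, means, each library left out, a replicate block, other level limits, named genes only and tied sites kept. Those on unmasked sites, on genes with pairs of both kinds and on unequal pairs were chosen after seeing the data.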

Additional observations from a re-analysis of the deposited data

Results flagged for a closer look

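Sites that the tables place outside named genes also had neighbours. Another such site lay within 100 nt on the same strand for 139 of 7897 in astrocyte 1 (1.76%), 75 of 4883 in astrocyte 2 (1.54%), 48 of 5277 in microglia 1 (0.91%) and 61 of 4698 in microglia 2 (1.3%). These sites were outside the comparisons above, and no control samples were at hand to compare them with.

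The clustered minus isolated difference in the percent of sites at 100% was above 0 in both libraries labelled astrocyte (1.43 and 5.15 points) and below 0 in both labelled microglia (-0.59 and -0.04 points). The means of the labelled types differed by 3.60 points. This difference was not tested, and the markers of replicate 2 go against the labels. The split by label was not kept under other settings. Clustered minus isolated was 6.46 points at a distance of 50 nt and 2.97 points off soft-masked bases, above 0 in 4 of 4 libraries each time.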

How the results depend on the processing

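The smaller level difference between close neighbours kept its direction under 12 of 12 alternatives, from -9.77 to -5.40 points, and from -9.12 to -7.05 with a library left out. The clustered minus isolated level reversed to -0.48 points at 200 nt, -5.20 below 100%, -0.27 with GAC only, -0.85 with 1 value per gene and -0.20 with means, and ranged from -1.29 to 2.52 with a library left out. The percent at 100% reversed to -1.39 points at 200 nt and ranged from 0.27 to 2.18 with a library left out. The percent with AAC reversed to -1.25 at 200 nt and -0.20 with 1 value per gene, and ranged from -0.026, without astrocyte 2, to 1.51. The cause of these reversals was not tested. Listing in another library was -0.03 points at 50 nt, -1.95 at 200 nt and with GAC only, -3.43 below 100% and -2.17 off soft-masked bases, each lower in 3 libraries and higher in 1, and -3.38 to -2.20 with a library left out. Soft-masked bases were -1.30 points with GAC only and -3.27 to -1.71 with a library left out. By construction the clustered share moved from 8.56% to 5.53% at 50 nt, 12.5% at 200 nt and 4.38% with genes counted once. Genes of the lists with clusters likewise moved from 54 to 35 at 50 nt and to 80 at 200 nt. With a library left out the clustered share ranged from 7.94% to 9.81%, and its difference between labelled types from 0.84 to 5.31 points. The deviations of same-numbered libraries from the means of their labelled types had r = -0.07 over 354 sites. The markers of replicate 2 go against the labels, so this value cannot tell whether same-numbered libraries share a deviation. With the replicate number as a block limma called 0 sites, with 10 at an unadjusted p under 0.05. The other limma settings called 0 sites as well, with 2 to 19 at an unadjusted p under 0.05. With 4 libraries no sign-flip p can be below 0.125, and unknown depth leaves the error of each level unknown.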
